A study of Mus musculus with 2 samples.

Results

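Heat shock proteins and their co-chaperones were compared between the ovulating ovary of wild-type mice and that of progesterone receptor (PR) knockout mice. The members were all genes whose single symbol on the array begins with Hspa, Hspb, Hspd, Hspe, Hsph, Hsp90, Hsf, Dnaja, Dnajb, Dnajc or Bag followed by a digit. This gave 78 of 18193 genes, read by 177 of 34945 probe sets with 1 symbol. The HSP90 genes have a letter after their stem, so the pattern does not take them, and they are described with other partners below. Mice of both genotypes had a C57BL/6 background, were 24 to 28 days old and had the same treatment, 5 IU of PMSG, a gonadotropin that drives follicle growth, and 48 h later 5 IU of hCG, which triggers ovulation. Ovaries were removed 11 h after hCG. Of each genotype 1 RNA sample was hybridized to 1 Affymetrix Mouse Genome array, and the sources used here do not give how many mice it holds. Without replicates no difference could be tested, no p-value is given, and every value below is a single measurement.

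Chaperones of the HSP70 class bind unfolded stretches of proteins and release them in a cycle driven by ATP. J proteins (the Dnaj genes) bring clients to HSP70 and start ATP hydrolysis, and BAG proteins and HSP110 proteins exchange the bound nucleotide. Small heat shock proteins hold unfolding proteins until HSP70 can take them, and the chaperonin of mitochondria encloses them in a chamber. Heat shock factor 1 switches on many of these genes under proteotoxic stress, while the unfolded protein response does so for chaperones of the endoplasmic reticulum. Steroid receptors, PR among them, are folded into their hormone-binding state by a relay from HSP40 and HSP70 to HSP90 and its co-chaperones.

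Signals are MAS5 intensities, scaled by the authors to the same trimmed mean on both arrays. They have arbitrary units and can be compared between arrays for 1 probe set, but not between genes. Where a gene had several probe sets, the one with the highest signal over both arrays (mean of log2) represents it. The floor for a measurable signal was the array's median over probe sets other than controls, 36.2 for wild type and 38.0 for knockout, and lower signals were set to it. A gene counted as measured when it reached the floor on at least 1 array. Of the 78 members 63 were measured, 61 of them on both arrays, and 15 lay under the floor on both. Differences are log2 of knockout over wild type. The spread that the arrays allow is that between probe sets of 1 gene, with an SD of 0.25 on the log2 scale, or 1.19-fold, over 4771 genes. It leaves out the spread between animals. In a whole ovary a lower signal can come from fewer cells of a type or from less RNA per cell, and these cannot be told apart.

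Chaperone genes, like most measured genes, differed little between the genotypes, and most of their differences lay towards lower signal in the knockout ovary. Of the 63 measured members, 42 (66.7%) had lower and 21 higher signal in the knockout, where 42.2% of all 11316 measured genes were lower and 57.7% higher. The median log2 difference over members was -0.13, against 0.06 over all measured genes. When a gene's probe sets were averaged instead, the split was 35 lower and 27 higher (56.5% lower, against 42.7% of all genes). Without probe sets named _a_at, _s_at or _x_at it was 34 and 21 (61.8% against 41.2%). At least 1.5-fold lower were 3 members, Hspa1a, Hspa1b and Dnajb1, while 4.75% of all measured genes were. At least 1.5-fold higher were 2 members, Dnajc15 and Dnajc28, against 6.54% of all genes. Each of these counts is close to or under what the background share would give for 63 genes. No member was 2-fold apart in either direction, where 1.72% of all genes were lower and 1.15% higher by that much. The split at 1.5-fold depended on scaling. After median centring or removal of the loess trend 6 members were lower and 1 higher, and after quantile normalization 4 and 1. The shares of all measured genes moved too, to 5.92% lower and 4.78% higher after median centring. They were 5.95% and 4.57% without the loess trend, and 5.42% and 5.01% after quantile normalization. The 20 members that were lower by more than the probe set SD of 0.25 outnumbered the 8 that were higher by more than it. Over all measured genes the same shares were 15.6% lower and 26.2% higher. The other 35 members lay within that SD of equality, as did 58.2% of all measured genes.

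**Figure D1:**
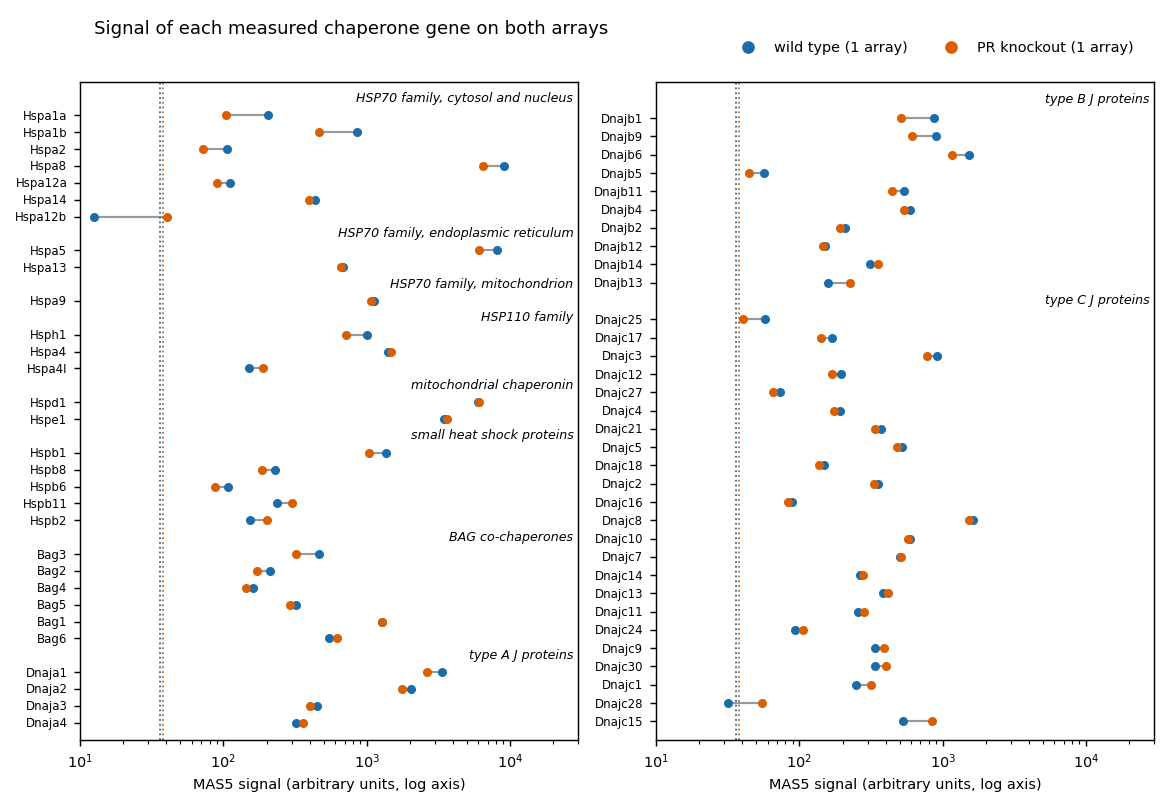
MAS5 signal (log axis) of each of the 63 measured chaperone genes on the wild-type (blue) and PR knockout (orange) array, 1 array each, grouped by family and ordered by difference, with dotted lines at each array's floor. Among genes above both floors, Hspa1a, Hspa1b and Dnajb1 are shifted most to the left in the knockout, Dnajc15 most to the right, and most pairs nearly coincide. The wide gap of Hspa12b is between a signal under the floor and a signal close to it.

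Among HSP70 genes the stress-inducible pair Hspa1a and Hspa1b had the largest differences of any member. Their products are nearly identical cytosolic chaperones that cells make in quantity after heat or other proteotoxic stress. Hspa1a gave 204 in the wild-type ovary and 105 in the ovary without the receptor, 1.94-fold lower, and 213 of the measured genes had a larger difference in that direction. Hspa1b was read by 3 probe sets, with signals of 859, 698 and 453 in the wild type and, in the same order, of 464, 322 and 265 in the knockout. All 4 probe sets of the pair were thus lower in the knockout, by -1.12 to -0.78 on the log2 scale. For the probe set that represents Hspa1b the difference was 1.85-fold. Probe sets of near-identical genes can bind transcripts of both, so these values may not separate Hspa1a from Hspa1b. With the 70th percentile as the floor, 128 in the knockout, Hspa1a was at least 1.60-fold lower.

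The 2 genes are neighbours, and the RefSeq promoter windows (GRCm38.p6) show how alike they are. A window runs from 250 bases before the start of transcription to 50 after it. Over the 250 bases before the start the copies differ at 3 bases. The sequences are shown because both genes differed in the same direction and both hold, 104 bases before the start, a pair of inverted units of the kind that heat shock factors bind. This match, in capitals, is to GAANNTTC, with the minus strand of chromosome 17 read 5′ to 3′. Hspa1b lies at chr17:34959239-34959488 and Hspa1a at chr17:34972157-34972406.
Hspa1b: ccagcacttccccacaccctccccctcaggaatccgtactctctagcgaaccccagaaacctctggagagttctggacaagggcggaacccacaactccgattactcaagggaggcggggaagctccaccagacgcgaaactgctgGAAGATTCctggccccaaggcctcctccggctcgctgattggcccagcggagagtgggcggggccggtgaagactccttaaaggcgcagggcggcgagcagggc
Hspa1a: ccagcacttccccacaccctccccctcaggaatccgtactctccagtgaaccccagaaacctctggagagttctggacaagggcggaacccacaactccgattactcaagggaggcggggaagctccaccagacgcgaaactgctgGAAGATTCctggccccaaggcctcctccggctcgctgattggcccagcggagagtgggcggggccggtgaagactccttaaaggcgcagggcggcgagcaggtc
The match and its surroundings are the same in both copies.

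By their brightest probe sets most constitutive HSP70 genes also had lower signal in the knockout, by smaller amounts. Hspa8, the abundant housekeeping HSP70 of the cytosol, had signals of 9124 and 6485, 1.41-fold lower. Its 4 probe sets ran from -0.53 to 0.00 on the log2 scale, so 1 of them showed no difference. Hspa2, best known from meiotic male germ cells, was dim, with 105 in the wild-type ovary and 71.8 in the knockout (1.47-fold lower). Hspa14, a ribosome-associated relative, had 436 and 393, a log2 difference of -0.15. Another probe set of Hspa14 gave 66.4 and 30.8, the latter under the floor. The sign of Hspa14 turned over the alternatives, from -0.22 to 0.31. Hspa12a and Hspa12b encode distant members of the family. The brightest probe set of Hspa12a gave 112 and 90.2 (-0.31), but another probe set gave 71.6 and 117 (0.72), so the gene has no clear direction. Hspa12b was under the floor in the wild type, at 12.6, and at 40.2 in the knockout, close to the floor. Hspa1l, a gene next to Hspa1a that is best known from testis, was under the floor on both arrays, with 1.17 and 0.97. Of the 7 measured cytosolic members 6 were thus lower by the probe sets that represent them, against 42.2% of all measured genes. The median of the 7 was -0.49 on the log2 scale.

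HSP70 proteins of other compartments differed less. Hspa5 encodes BiP, the HSP70 of the endoplasmic reticulum, with signals of 8087 in the wild-type ovary and 6056 in the knockout, 1.34-fold lower. Its 3 probe sets did not have 1 direction and ran from -0.53 to 0.10. Hspa13, a microsomal HSP70-like gene, had 687 and 659, with 4 probe sets from -0.06 to 0.10. Hspa9, which encodes the mitochondrial HSP70 mortalin, gave 1119 and 1073 (-0.06). All 4 probe sets of Hspa9 on both arrays were lower in the knockout, and the dimmer ones differed more, down to -0.81.

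Among HSP110 genes, whose products exchange nucleotide on HSP70, Hsph1 was lower by both of its probe sets and Hspa4 higher by all of its own. Hsph1 is the heat-inducible member, with 1005 in the wild-type ovary and 717 in the knockout by its brighter and 547 and 398 by its other probe set. Both were lower, by -0.49 and -0.46 on the log2 scale, or 1.40-fold for the brighter. Hspa4 gave 1405 and 1483, and its 4 probe sets were all higher, from 0.08 to 0.37. Hspa4l had 150 and 190 by its brightest probe set, but its 5 probe sets ran from -0.50 to 0.35. The direction of Hspa4l therefore depends on the probe set.

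The mitochondrial chaperonin genes were nearly equal in both genotypes by their brightest probe sets. Hspd1 encodes the HSP60 subunit of the chamber, with signals of 6022 and 6031, and Hspe1 its HSP10 lid, with 3456 and 3608. The log2 differences of 0.00 and 0.06 were within the probe set SD, although the dimmer probe set of Hspe1 gave 931 and 1353 (0.54). These genes are neighbours with starts 215 bases apart on opposite strands. The median of the pair was 0.03 and ran over the alternatives from -0.04 with median centring to 0.27 without probe sets named _a_at, _s_at or _x_at, where the dimmer probe set represents Hspe1.

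Small heat shock proteins had mixed directions. Hspb1, the widely expressed member known as HSP27 or HSP25, had 1356 in the wild-type ovary and 1032 in the knockout, 1.31-fold lower, and its other probe set gave 719 and 579. Hspb8, which works in a complex with Bag3, had 230 and 185 (-0.31), with 3 probe sets from -0.31 to 0.06. Hspb6 was dimmer, with 108 and 87.5 (-0.31). Higher in the knockout were Hspb2, with 154 and 201 (0.38), and Hspb11, with 236 and 299 (0.34). Hspb11 is named with this family but encodes a protein of intraflagellar transport. The neighbour of Hspb2 is Cryab, the αB-crystallin gene, which was also higher, at 196 and 310 (0.66, and 0.96 by its other probe set). Hspb3, Hspb7 and Hspb9 were under the floor on both arrays. The median over the 5 measured members was -0.31, and it was 0.02 with the 70th-percentile floor.

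BAG co-chaperones were lower for 5 of 6 genes, where 42.2% of all measured genes were, mostly by amounts within the probe set SD. Bag3, which is induced by heat shock factor 1 and links HSP70 to selective autophagy, had 468 in the wild-type ovary and 320 in the knockout. It was 1.46-fold lower, and 1.5-fold or more after median centring and after removal of the loess trend. Bag2, an inhibitor of the ubiquitin ligase that acts with HSP70, had 210 and 172 (-0.29). Bag4 gave 161 and 143 (-0.17), with all 3 probe sets lower. Bag5 gave 320 and 291 (-0.14) and Bag1 1278 and 1272 (-0.01). The sign of both turned over the alternatives, Bag5 running from -0.21 to 0.68 and Bag1 from -0.08 to 0.03. The 0.68 came from the mean over probe sets, which took in a probe set of Bag5 under the floor. Bag6, which guides newly made membrane proteins, was higher, with 546 and 625 (0.19). The 6 genes had a median of -0.16.

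J proteins of type A have the full domain set of the bacterial DnaJ protein. Dnaja1, an abundant cytosolic partner of HSP70, gave 3348 and 2618, 1.28-fold lower, and its 3 probe sets were all lower, from -0.50 to -0.35. Dnaja2 gave 2035 and 1774 (-0.20), with 4 probe sets from -0.35 to -0.06, all lower. Dnaja3, the mitochondrial type A protein, had 450 and 405 (-0.15) but 144 and 161 by its other probe set on both arrays. Dnaja4 had 321 and 361 (0.17), with 3 probe sets from -0.08 to 0.17. The cytosolic pair Dnaja1 and Dnaja2 was thus lower by every probe set, while Dnaja3 and Dnaja4 had no single direction.

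Type B J proteins lack the zinc-binding region of type A, and Dnajb1 led them. Dnajb1 encodes HSP40, the heat-inducible cytosolic partner of HSP70. It had 863 in the wild-type ovary and 510 in the knockout, 1.69-fold lower, and 565 and 408 by its other probe set (-0.47 on the log2 scale). The difference was at least 1.5-fold in all 8 alternatives of the processing. Dnajb9 is a target of the unfolded protein response that brings clients to BiP. It gave 899 and 610, 1.47-fold lower by its only probe set. Dnajb6, which holds back aggregation of proteins, gave 1523 and 1165 (-0.39), with 4 probe sets from -0.39 to 0.11. Dnajb4 gave 596 and 541 (-0.14) but 160 and 192 by its other probe set on both arrays. Dnajb11, another BiP partner, had 533 and 444 (-0.26). Dnajb13, which encodes a protein of motile cilia and sperm tails, was the type B member farthest in the other direction, with 159 and 225 (1.42-fold higher). Of 10 measured type B genes 8 were lower, with a median of -0.20, where 42.2% of all measured genes were lower. Those not named above ranged from -0.36 for Dnajb5, close to the floor, to 0.18 for Dnajb14. Dnajb3, Dnajb7 and Dnajb8 were under the floor on both arrays.

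Type C J proteins share only the J domain and serve many separate machines, and their directions were divided. Of 23 measured genes 13 were lower and 10 higher, with a median of -0.08, where 42.2% of all measured genes were lower. The largest difference was in Dnajc15, which encodes a J protein of the mitochondrial inner membrane. Its single probe set had signals of 528 and 846, 1.60-fold higher in the knockout, and it was at least 1.5-fold higher in all 8 alternatives. In the whole measured set 490 genes differed more in that direction. Dnajc28 was under the floor in the wild type, with 31.5, and had 55.0 in the knockout, at least 1.52-fold higher at a dim signal. Other mitochondrial J proteins were Dnajc30, with 336 and 402 (0.26), and Dnajc11, with 258 and 281 (0.13). The probe sets of Dnajc11 on both arrays ran from -0.16 to 0.13.

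J proteins of the endoplasmic reticulum included Dnajc3, which binds unfolded proteins and restrains the kinase PERK, with 913 and 773 (-0.24). Its 5 probe sets ran from -0.25 to 0.02. Dnajc10, which reduces disulfide bonds of misfolded proteins, gave 590 and 574, with 3 probe sets from -0.24 to 0.01. Dnajc1, a J protein of the same membrane, gave 249 and 316 (0.34) by its brightest probe set, but its 5 probe sets on both arrays ran from -0.34 to 0.34. Dnajc25 had 57.3 and 40.6 (-0.50), the knockout signal lying close to the floor.

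The remaining type C genes lay within 0.26 of equality by the probe set that represents them. Dnajc8, a protein of the splicing machinery, gave 1614 and 1523, and Dnajc2, which sits on the ribosome, 356 and 330. Dnajc5, the cysteine string protein of secretory vesicles, gave 520 and 477 (-0.13), but its 5 probe sets ran from -0.13 to 0.36. Dnajc7, which passes clients between HSP70 and HSP90, gave 500 and 512. Dnajc9, a histone chaperone, gave 335 and 389 (0.22). Dnajc22, Dnajc5b, Dnajc5g and Dnajc6 were under the floor on both arrays, Dnajc6 being auxilin, which uncoats clathrin vesicles in neurons.

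No heat shock factor gene was measured. Hsf2 had 23.4 in the wild-type ovary and 31.1 in the knockout by its brighter probe set, and Hsf4 and Hsf5 had 13.2 and 8.03, and 20.2 and 4.08. All of these lay under the floor. Hsf2bp, which the pattern takes by name although it encodes a meiotic partner of HSF2, was also under the floor, with 35.6 and 28.0. Hsf1, the master regulator of the response, was not analysed here.

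**Figure D2:**
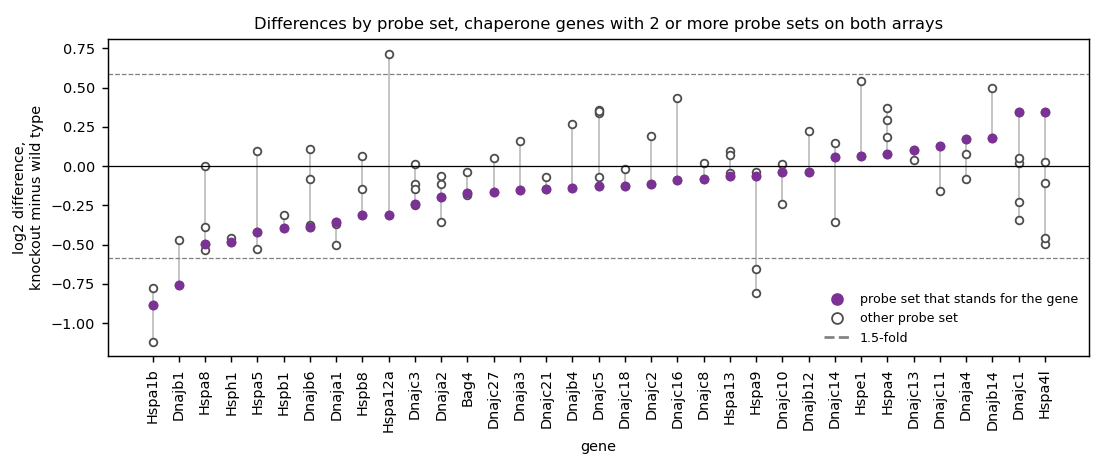
Log2 difference (knockout minus wild type) of every probe set that reached both floors, for the 35 chaperone genes with at least 2 such probe sets, ordered by the probe set that represents the gene (filled). All probe sets of Hspa1b and Dnajb1 are lower in the knockout, whereas those of Hspa12a, Hspa4l and Dnajc1 lie on both sides of 0.

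Probe sets of the same gene often differed in sign, which limits how far small differences can be read. Of the 35 members with at least 2 probe sets on both arrays, 10 were lower by every probe set, 4 higher by every probe set and 21 mixed. The SD between probe sets of a member was 0.24 on the log2 scale, close to the 0.25 over all genes. Over the 8 alternatives, 43 members kept 1 sign, 29 of them lower and 14 higher, and the sign turned in 20. Hspa1a, Hspa1b and Dnajb1 were at least 1.5-fold lower in all 8. The counts of members with 1 sign over probe sets or over alternatives were not made for all measured genes. They therefore have no background share beside them. The median was negative among dim and bright members alike, -0.11 over the 31 dimmer and -0.14 over the 32 brighter members. All measured genes in the same signal ranges had medians of 0.10 and -0.01.

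**Figure D3:**
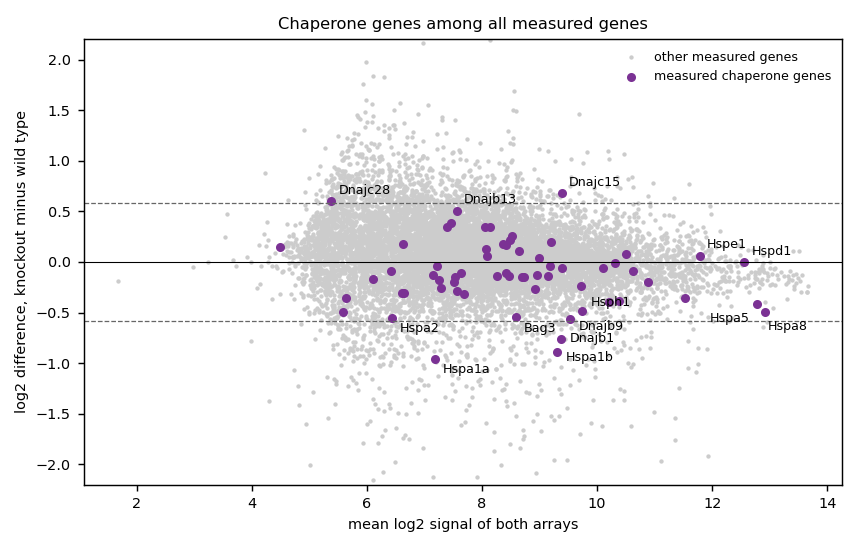
Log2 difference against mean log2 signal for all 11316 measured genes (grey) and the 63 measured chaperone genes (purple), with dashed lines at 1.5-fold. Hspa1a, Hspa1b and Dnajb1 lie under the lower line and Dnajc15 and Dnajc28 above the upper one, and 34 genes beyond the axis limit of 2.2 are not drawn.

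When the members were ordered by the response that controls them, most genes of the heat shock and unfolded protein responses were lower, while mitochondrial genes were divided. A list of 20 classic heat shock factor 1 targets had 19 genes on the array, all measured. Of these 13 were lower and 6 higher, where 42.2% of all measured genes were lower and 57.7% higher. The median of the list was -0.26, against 0.06 over all genes. At least 1.5-fold lower were 3 of the 19, and 1 was 1.5-fold higher, Cryab, where 4.75% of all measured genes were lower and 6.54% higher by that much. The 13 of them that are members had a median of -0.39, with 10 lower. The 4 largest differences of the list were those of Hspa1a, Hspa1b, Dnajb1 and Cryab. As stated above, the probe sets of Hspa1a and Hspa1b may not separate these genes. Targets with other values included Hspd1 and Hspe1 (above) and Serpinh1, the collagen chaperone HSP47, with 3247 and 4135 (0.35). The median of the list was negative in all 8 alternatives, from -0.33 to -0.14.

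The unfolded protein response list had 18 of 24 measured genes lower, with a median of -0.19. Over all measured genes 42.2% were lower and the median was 0.06. Xbp1 alone was at least 1.5-fold lower, where 4.75% of all measured genes were. The list's 6 members, Hspa5, Hspa13, Dnajb9, Dnajb11, Dnajc3 and Dnajc10, were all lower by the probe sets that represent them, with a median of -0.25. Hspa5, Hspa13, Dnajc3 and Dnajc10 also had probe sets above 0, and the sign of Hspa13 and Dnajc10 turned in at least 1 alternative. The largest differences were in Xbp1, a transcription factor of this response, with 2522 and 1512 (1.67-fold lower), followed by Dnajb9, Herpud1 and Sdf2l1. Herpud1, which serves degradation at the endoplasmic reticulum, gave 504 and 353 (-0.52), and Sdf2l1, which acts with BiP, 101 and 75.4 (-0.43). All 4 probe sets of Xbp1 were lower, from -0.80 to -0.46. The transcription factor genes Atf4 and Ddit3 had opposite directions, -0.42 and 0.32, the latter with probe sets from -0.28 to 0.32.

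The mitochondrial folding and import list had 8 genes lower and 10 higher of 18 measured, and 3 were at least 1.5-fold higher. Of all measured genes 57.7% were higher, a share close to this list's, and 6.54% by at least 1.5-fold. Its median was 0.03, which turned to -0.04 after median centring. The 4 largest differences were in Dnajc15, Hscb, Dnajc28 and Lonp1. Hscb, a J protein for iron-sulfur clusters, was dim, with 86.0 and 132 (1.54-fold higher), and Lonp1, a protease of the matrix, gave 732 and 1052 (0.52). The 8 members of the list had a median of 0.09, with 6 higher. The cytosolic chaperonin TRiC and prefoldin, which fold actin and tubulin, had 7 of 13 genes lower, where 42.2% of all measured genes were. Their median was -0.05, and none was 1.5-fold apart. Their 4 largest differences, in Cct7, Pfdn4, Cct3 and Tcp1, ran from -0.24 to -0.20. Whether the lists differ from each other was not tested.

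HSP90 genes, the next station of the steroid receptor relay, had somewhat higher signal in the knockout by their brightest probe sets. Over all measured genes 57.7% were higher. Hsp90aa1, the inducible cytosolic form, gave 3011 and 3305 (0.13), and Hsp90b1, the form of the endoplasmic reticulum known as GRP94, 2801 and 3360 (0.26). Trap1, the mitochondrial form, gave 583 and 678 (0.22). All 3 had another probe set with a log2 difference below 0, between -0.11 and -0.01, so no direction can be given. Hsp90ab1 was not analysed here. Of 14 other co-chaperones of HSP90 and HSP70, 7 were lower and 7 higher, where 42.2% of all measured genes were lower. Their median was -0.01, and none was 1.5-fold apart. The 4 farthest from equality were Cdc37l1, with probe sets from -0.21 to 0.67, Fkbp5, Unc45a and Chordc1. Fkbp5, an immunophilin of steroid receptor complexes that is itself induced by steroid hormones, had 3314 and 2751 (-0.27). Fkbp4, the immunophilin that supports PR activity, gave 864 and 927 (0.10), and Stip1, which links HSP70 to HSP90, 608 and 556 (-0.13).

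**Figure D4:**
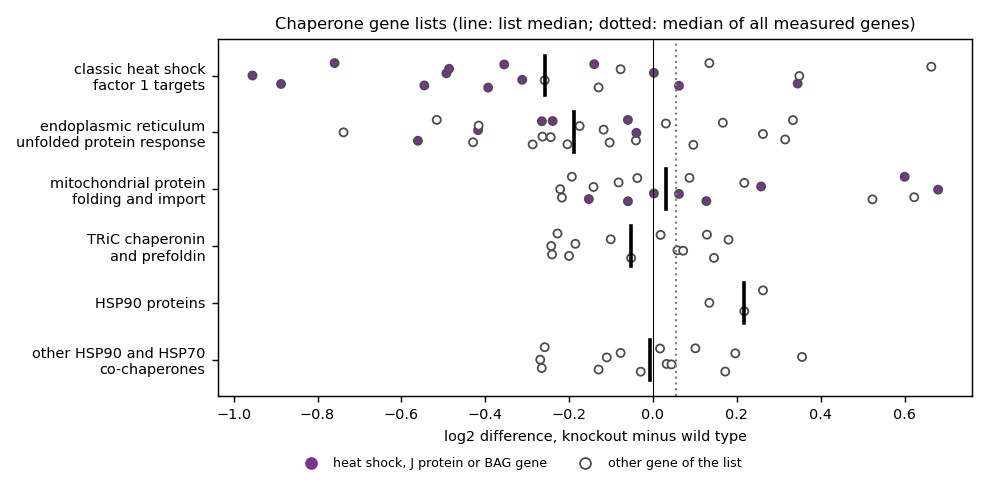
Log2 difference (knockout minus wild type) of each measured gene in 6 chaperone lists, with heat shock, J protein and BAG genes filled and other genes open, list medians as black bars and the median of all genes dotted. The heat shock factor 1 targets spread farthest to the left, with a median of -0.26, and the HSP90 genes lie to the right of 0 by their brightest probe sets.

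The sequences before the start of transcription were searched for the elements of both stress responses, as a description of what the members share. RefSeq windows were found for 64 of the 78 members, 82 windows in all. The 2-unit heat shock element, GAANNTTC or TTCNNGAA on either strand, occurred in 24.4% of member windows and in 15.1% of all 32851 windows. By gene the shares were 28.1% of the 64 members and 17.0% of all genes. The longer 3-unit form GAANNTTCNNGAA, searched on both strands, contains the shorter form and occurred in 6 of 82 member windows and in 0.603% of all windows. The 6 windows belong to 4 genes, Hspd1, Hspe1, Dnajb6 and Hsph1, or 6.25% of the 64 members against 0.662% of all genes. They are not separate stretches. The windows of Hspd1 and Hspe1 overlap, as do those of Dnajb6 and those of Hsph1, so 1 site can count more than once. Short stretches of 30 bases are shown for 4 chosen members with a match before the start, with all 2-unit matches in capitals. Not every member with such a match is shown. They are Hsph1 at chr5:149636351-149636380 on the minus strand, and Hspb1 at chr5:135887801-135887830, Dnaja1 at chr4:40722333-40722362 and Hspe1 at chr1:55088053-55088082 on the plus strand.
Hsph1: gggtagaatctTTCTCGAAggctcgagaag
Hspb1: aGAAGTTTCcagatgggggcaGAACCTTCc
Dnaja1: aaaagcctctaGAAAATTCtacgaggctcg
Hspe1: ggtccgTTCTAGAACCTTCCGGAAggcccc
Of the 15 measured members with a 2-unit match, all but Dnaja4, Hspd1 and Hspe1 were lower in the knockout. Over all measured members 66.7% were lower, and over all measured genes 42.2%. The sign of Dnajb4, Dnajc10 and Dnajc27, counted here as lower, turned in at least 1 alternative. The largest differences among the 15 were those of Hspa1a and Hspa1b, whose probe sets may not separate the 2 genes. Most measured members whose windows held no match were lower too, and whether the groups differ was not tested. A window each of Hspd1, Hspe1 and Hsph1 held 3 of the 2-unit matches, with differences of 0.00, 0.06 and -0.49. Dnajb6 held the 3-unit form (-0.39), 1 of the windows of Dnaja4 held 2 of the 2-unit matches (0.17), and Dnajb1 held none in either of its windows (-0.76). A match is a description of letters and not evidence that a factor binds.

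The element of the unfolded protein response, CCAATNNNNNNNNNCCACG on either strand, occurred in the windows of Hspa5 and Dnajc3 and in 0.119% of all windows. Hspa5 is shown as the best known gene of that response, at chr2:34771840-34772089 on the plus strand, with its match in capitals.
Hspa5: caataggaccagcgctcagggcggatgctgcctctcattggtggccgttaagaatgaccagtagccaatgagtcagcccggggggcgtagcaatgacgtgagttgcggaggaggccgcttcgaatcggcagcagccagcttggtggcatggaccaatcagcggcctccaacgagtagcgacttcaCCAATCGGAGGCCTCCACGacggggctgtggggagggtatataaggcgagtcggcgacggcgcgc
The match lies from 65 to 47 bases before the start. The core of a progesterone response element, ACANNNTGT, which reads the same on both strands, occurred in 2 of 82 member windows (2.44%), those of Hspa1l and Hspb3, and in 6.85% of all windows. Neither gene was measured, and the 69 windows of measured members held 0. In any case a window without these letters says nothing of sites elsewhere.

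Other measures also differed between the arrays, in both directions. Immediate-early genes can be induced by both tissue handling and hormones. At least 2-fold lower were 10 of the 16 measured, against 1.72% of all measured genes. The immediate-early genes had a median of -1.71. Fos gave 962 and 201. Their summed signal was 22297 and 9308, and their part in the chaperone differences was not tested. Granulosa markers were higher for 5 of 6 genes (summed signal 13251 and 14067) and oocyte markers for all 8 (2518 and 2821). Of all measured genes 57.7% were higher. Luteinizing cell markers gave 35273 and 33715. Endothelial markers summed to 1042 and 1263, smooth muscle markers to 12361 and 12031, and leukocyte markers, of which 3 of 6 were measured, to 256 and 231. The part of these cell types in the chaperone differences was not tested. Skeletal and cardiac muscle markers were mostly under the floor, with 4 of 12 measured, red blood cell markers with 1 of 3, and fat and oviduct markers with 1 of 4. The latter was Fabp4, a lipid-binding protein gene, with 335 and 70.9, 4.72-fold lower, while Adipoq, which defines fat, was under the floor on both arrays. The list summed to 371 and 106, and its part was not tested. The array's own Gapdh and actin control probe sets had lower signal in the knockout, for example 8131 and 6889 for the 3′ Gapdh probe set and 14421 and 11641 for that of actin. The log2 differences of the 4 probe sets ran from -0.32 to -0.18, each a larger decrease than the member median of -0.13. Their part in the chaperone differences was not tested. Signals at the 3′ end over the 5′ end were alike on the arrays, 0.87 and 0.83 for the Gapdh controls and 1.29 and 1.30 for the actin controls.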

How the data were processed

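RNA from 1 wild-type and 1 PR knockout ovary sample was labelled from 100 ng of total RNA with a 3′ kit, per the labels' protocols. The deposited values are linear intensities for 45101 probe sets, made by the authors with MAS5 in Affymetrix Expression Console version 1, per the submitters' processing notes. Both arrays have a mean of 150 after trimming 2% at each end. The genome build, pooling and any batch are not given in the sources used here.

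Intensities were taken to log2 as deposited, without 64 control probe sets. Symbols came from the platform annotation (932 probe sets had several, 9160 none), and the gene IDs of all 78 members were found in the RefSeq table of GRCm38.p6. The floor and the choice of probe set are stated with the results. Alternatives were the 70th percentile as floor, no floor, an offset of 32 before log2, median centring, quantile normalization, removal of the loess trend, the mean over probe sets, and leaving out probe sets named _a_at, _s_at or _x_at, which may match several transcripts. The calculation (Python 3.11.15, pandas 2.3.3; loess from statsmodels 0.14.6 with a span of 0.3) was tested on simulated data. Members and the 27 gene lists were chosen with earlier results of these data known. In families other than types B and C every measured member was named. In types B and C the rule took members at least 1.5-fold apart and the 4 with the highest signals, and from each other chaperone list the 4 largest differences. Other genes were chosen after their values were seen. The number of arrays limits the precision.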

Additional observations from a re-analysis of the deposited data

How the results depend on the processing

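Against 3 members at least 1.5-fold lower, 2 at least 1.5-fold higher and none 2-fold apart, 8 alternatives were tried. The count at least 1.5-fold lower became 6 after median centring and after removal of the loess trend, and the count at least 1.5-fold higher became 1 with these, with quantile normalization and with the 70th-percentile floor. It became 3 without a floor and with the probe sets named _a_at, _s_at or _x_at left out. The count lower became 4 with quantile normalization and with the mean over probe sets. The shares of all measured genes moved with the setting as well. Over the alternatives 3.82% to 5.95% of them were at least 1.5-fold lower and 3.25% to 7.89% at least 1.5-fold higher. With each of the 3 rescalings 1 member, Hspa1a, was at least 2-fold lower, and without the floor 1 member, Hspa12b, was at least 2-fold higher. The median over members was -0.13, and it moved to -0.195 with median centring, -0.187 without the loess trend, -0.055 with the mean over probe sets and -0.086 with those probe sets left out. It stayed below the median of all genes in each, and the causes were not tested. Of 485 values of single members under the alternatives, 468 moved by no more than the probe set SD and 17 by more. No paired analysis was possible because each genotype has 1 array. Dim signals limit Hspa12b, Dnajc28, Dnajc25 and Dnajb5, which lie close to the floor.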
